A study of Mus musculus with 10 samples.

Results

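The genes described here make, sort and mature the secreted peptides of neurons: the granins, the precursors of neuropeptides, and the enzymes that cut and modify them. They are 33 named genes among 26089 curated RefSeq genes of mm10 outside chromosome Y, and a gene was given every REST peak that overlapped its body or lay within 5 kb of one of its start sites. REST ChIP-seq was done on whole cortex of female mice at 11 months of age, to learn which genes REST occupies in WT mice and in 3xTg mice, a model of Alzheimer's disease. WT mice were littermates of the 3xTg mice, whose altered genes are APPSwe, tauP301L and PS1 (knock-in). Both descend from C57BL/6J and a further strain. Each genotype had 4 ChIP replicates, each a pool of 4 cortices precipitated with an antibody to the C-terminus of REST, and 1 input library. The authors merged the replicates into 1 peak list per genotype, and only these lists were used here, so no value below has a replicate spread and the lists allow no test between genotypes.

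Granins and neuropeptide precursors enter the regulated secretory pathway in the Golgi, are packed into dense-core vesicles, and are cut there at pairs of basic residues by proprotein convertases before carboxypeptidase E trims the ends and the enzyme encoded by Pam amidates many of the products. In cortex several of the peptides mark classes of interneurons, whereas granins are found in neurons and neuroendocrine cells at large. REST is a zinc finger repressor that binds an element called RE1 and keeps neuronal genes, several granins among them, silent outside the nervous system. The tissue was bulk cortex, and a peak list holds no expression value, so the labelled tissue could not be checked against marker genes, and binding in few cells and weak binding in many cells cannot be told apart.

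The 2 lists differed in size and in where they began. The WT list held 3006 peaks with fold enrichments over local background from 6.0 to 68.6 and a median of 7.28. The 3xTg list held 5077 peaks from 8.50 to 69.0 with a median of 10.8. Because 2056 WT peaks lay below the lowest 3xTg value, fold enrichments are given side by side for each list, and each peak is also placed by its percentile within its own list, where 100 is the highest. The depth of the libraries was not used here, and what part depth has in the difference between the lists was not tested.

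Of the 33 genes, 9 had a WT peak, which is 27.3% against 9.30% of all genes. In the 3xTg list 10 had a peak, which is 30.3% against 14.2% of all genes. The same 9 genes had a peak in both lists, which is 27.3% against 7.78% of all genes. All 9 genes with a WT peak thus also had a 3xTg peak. Of the 2426 genes with a WT peak in the whole genome, 2030 did so too. Crh was the only member with a 3xTg peak and no WT peak, a class that held 6.42% of all genes, and no member had a WT peak without a 3xTg peak. With only as many 3xTg peaks as WT peaks this class held 0 members (all genes, 2.43%), and with the lowest 3xTg fold enrichment (a limit chosen after the data had been seen) or one over 10 required of both lists it held 4 (11.2% and 7.52%), so the count of 1 moved with the limits set on the lists. By the main rule the remaining 23 members had no peak in either list. Against protein-coding genes alone the shares to compare were 10.3% for WT and 15.7% for 3xTg.

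The members with peaks were concentrated in 2 roles. Among the granins 5 of 6 had a peak in both lists, namely Chga, Chgb, Scg2, Scg3 and Vgf. Among the processing enzymes 3 of 4 did, namely Pcsk2, Cpe and Pam. Of the 16 genes for cortical peptides and the CRH-binding protein, Pnoc had a peak in both lists and Crh in the 3xTg list. Among all genes the shares were 9.30% in WT and 14.2% in 3xTg. None of the 7 precursors known mainly from other regions had a peak. Groups of 16 and 7 genes are too small for these low counts to be read as a difference from all genes. The groups of 6 granins and 4 enzymes are smaller still, so their counts are a description and were not tested.

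The granins and the enzymes differed in the place of their peaks. Within 5 kb of a start site alone, 5 members had a WT peak (all genes, 6.72%) and 6 had a 3xTg peak (all genes, 9.87%). Within 1 kb the counts were again 5 in WT, where all genes gave 5.32%, and 6 in 3xTg, where they gave 7.84%. These were the 5 granins, with Crh added in 3xTg. The summits at Pnoc, Pcsk2, Cpe and Pam all lay in introns, far from the start site.

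The enzymes with peaks are long genes. Pcsk2, Cpe and Pam are the 3 members of 100 kb or more, and all 3 had a peak in both lists. Of all genes that long, 24.9% had a WT peak and 39.2% had a 3xTg peak. Among the 30 shorter members, 6 had a WT peak and 7 had a 3xTg peak. Shorter genes as a whole gave 7.69% and 11.6%. The split at 100 kb was chosen after the data had been seen, and what part length has in the count for the enzymes was not tested.

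In all, 10 WT peaks and 17 3xTg peaks met the rule at the members. All 10 WT peaks were shared, meaning that 1 base or more lay in common with a 3xTg peak, where 83.3% of the whole WT list was shared. Of the 17 3xTg peaks, 10 were shared and 7 were 3xTg-only, where 49.0% of the whole 3xTg list was shared. If the common bases must make up 50% or more of each peak, 7 member peaks of each list remain shared, against 59.2% of all WT peaks and 35.1% of all 3xTg peaks. The median percentile of the member peaks was 84.0 in WT and 74.5 in 3xTg. Over the 2329 WT peaks and 3907 3xTg peaks that met the same rule at any gene, it was 48.8 and 49.1. Member peaks within 1 kb of a start site had a median percentile of 89.9 in WT and 88.4 in 3xTg. Those in gene bodies more than 5 kb from a start had lower medians (60.1 and 74.5). Over all member peaks within 5 kb of a start site the medians were 89.9 and 78.5, so in 3xTg the gap was then small. Medians by position over the peaks of all genes are not given here. Whether the member values are high for peaks at that position is therefore not shown.

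**Figure D1:**
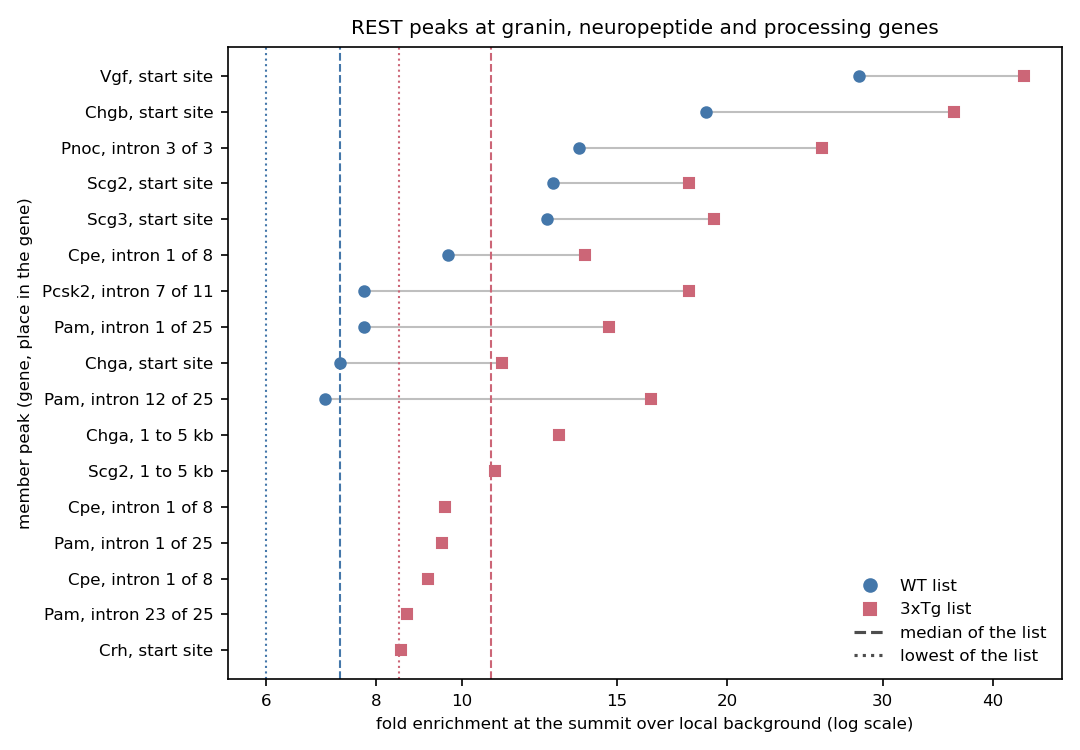
Fold enrichment at the summit (log axis) of each member peak, with WT values as circles and 3xTg values as squares joined where the peaks overlap; dashed lines are the list medians of 7.28 and 10.8, dotted lines the lowest values of 6.0 and 8.50. Vgf and Chgb stand highest in both lists, and the 7 peaks without a circle are 3xTg-only.

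Vgf, whose product is a secreted precursor of many small peptides and is induced by neurotrophins, carried the highest member peak in both lists. Fold enrichment was 28.2 in WT (rank 46 of 3006) and 43.4 in 3xTg (rank 52 of 5077). The WT peak, chr5:137029738-137031610 in mm10, covered the start site and 1873 bp, and the 3xTg peak covered 2207 bp, with summits 5 and 6 bp downstream of the start. The −log10 of the q-value was 171.13 in WT and 337.99 in 3xTg, against lowest values of 13.3 and 29.0 in the lists. The peak thus covered the same position in both lists, near the top of each (percentiles 98.5 and 99).

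Chgb encodes chromogranin B (secretogranin I), a major soluble cargo of dense-core vesicles. Its peak had a fold enrichment of 18.9 in WT (rank 108) and 36.1 in 3xTg (rank 86). The WT peak, chr2:132781382-132782157, spanned the start site with its summit in intron 1 of 4, and the 3xTg summit lay 16 bp away. Its ratio of 3xTg to WT fold enrichment, 1.91, was the highest among the granins.

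Scg2, the gene of secretogranin II and of the peptide secretoneurin, had a start site peak of 12.7 in WT and 18.1 in 3xTg. The WT peak lay at chr1:79439728-79440348, and the 3xTg peak, 1720 bp wide against 621 bp, reached into intron 1. The 3xTg list held another Scg2 peak, chr1:79437529-79438055, in intron 1 of 2 at 1971 bp from the start, with a fold enrichment of 10.9 and no WT partner. The start site peak was at percentile 89.9 of the WT list and 87.6 of the 3xTg list, and the added 3xTg peak was near the middle of its list (51.1).

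Scg3, which encodes secretogranin III, a membrane-associated granin that helps sort chromogranin A, showed 12.5 in WT and 19.3 in 3xTg. Both summits fell in the 5′ UTR in exon 1, 101 and 106 bp downstream of the start, within chr9:75683392-75684465 in WT. Its percentile was 89.6 in the WT list and 89.2 in the 3xTg list.

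Chga, the gene of chromogranin A, had the weakest start site peak among the granins that had one. Fold enrichment was 7.28 in WT, equal to the WT median when rounded, and 11.1 in 3xTg (percentiles 50.2 and 53.2). The WT peak, chr12:102554631-102555752, was 1122 bp wide, and the 3xTg peak was 2634 bp wide, both with the summit in intron 1 of 7. A 3xTg-only peak upstream, chr12:102550243-102550925, had a higher value than the start site peak of the same list, 12.9. With 4016 bp between it and the start site, it was the member peak closest to the 5 kb limit on the inside, and Chga would have kept its start site peak without it.

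Scg5, which encodes the chaperone 7B2 of the convertase made by Pcsk2, was the granin family member without a peak. Its nearest peaks lay 262245 bp from its start site in WT and 156624 bp in 3xTg.

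**Figure D2:**
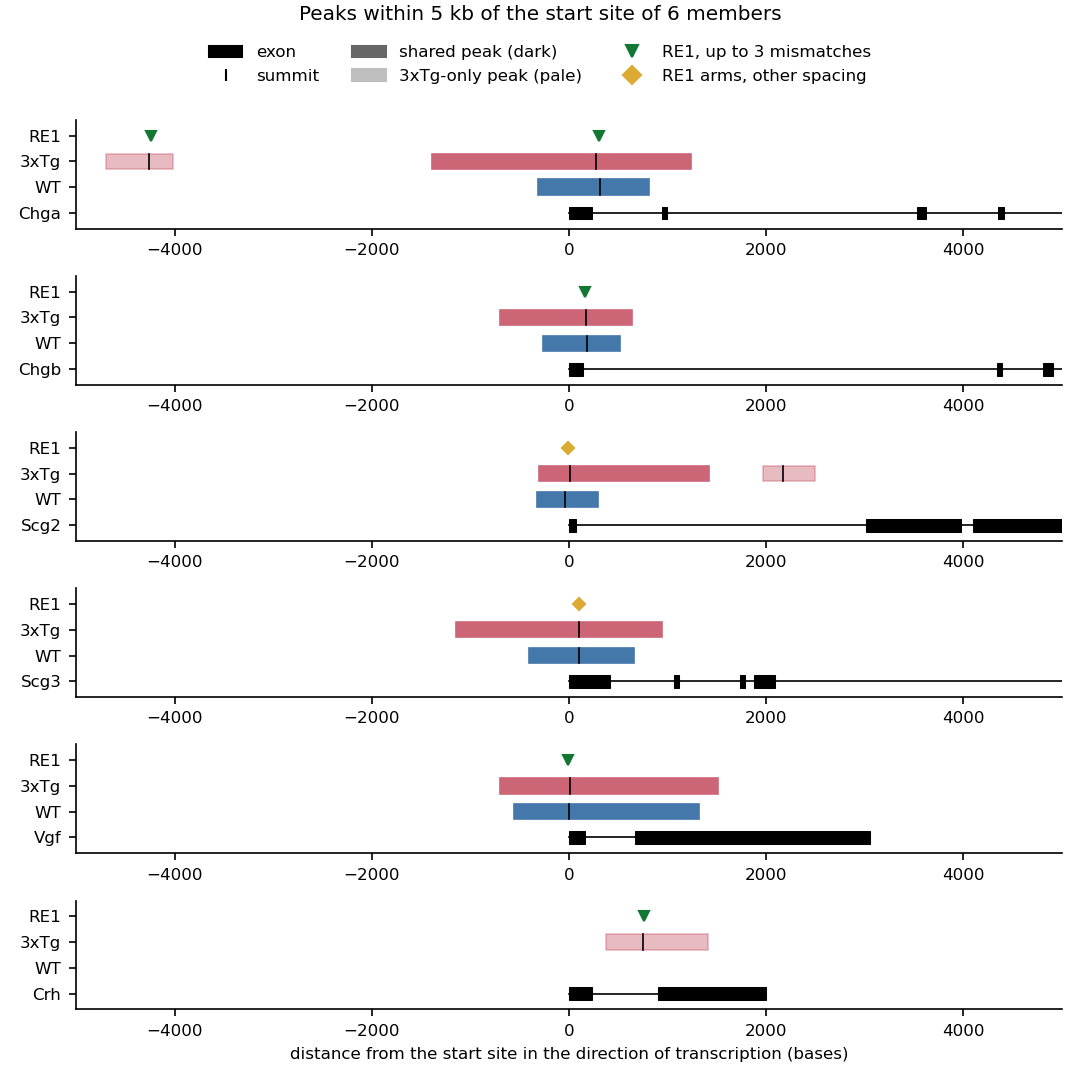
Gene models (exons as boxes), WT and 3xTg peaks with their summits, and RE1 matches from 5 kb upstream to 5 kb downstream of the start sites of Chga, Chgb, Scg2, Scg3, Vgf and Crh, drawn in the direction of transcription in bases. All 5 granins have overlapping peaks over the start site, and 3xTg-only peaks appear upstream of Chga, in intron 1 of Scg2 and at Crh.

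Each start site peak of the 5 granins held a match to RE1 or both of its arms close to the summit, and the sequences are shown because they differ in spacing from gene to gene. The RE1 consensus used has 20 bases, read here as a left arm of 8 bases, TCAGCACC, then 2 bases, then a right arm of 7 bases, GGACAGC, and 3 further bases. A match with at most 5 mismatches on either strand was present in 3 of the 10 WT member peaks (7.09% of all WT peaks) and in 6 of the 17 3xTg member peaks (6.09% of all 3xTg peaks). With at most 3 mismatches the counts were 3 in WT (list, 4.22%) and 5 in 3xTg (list, 2.97%). The best matches follow, in the reference sequence of mm10, with capitals for bases that match the consensus and lower case for those that do not. Chgb is the plus strand of chr2:132781795-132781814 and Vgf the minus strand of chr5:137030274-137030293. Chga in intron 1 is the plus strand of chr12:102555239-102555258 and Chga upstream the plus strand of chr12:102550695-102550714. Crh is the minus strand of chr3:19694629-19694648, and Cpe in intron 1 the minus strand of chr8:64658316-64658335.
Chgb: TCAGCACCccGGACAGCTCC
Vgf: TCAGCACgcTGGACAGCGCC
Chga intron 1: TCAGCACCtcGGACAGCaCC
Chga upstream: TCAGgACCAcGGACAGCGaC
Crh: TCAGCACCgcGGACAGCGtC
Cpe intron 1: cCAGCAgCAaGaACAGaGCC
The Chgb site departed from the consensus only at the 2 bases between the arms. The Vgf site was centred 12 bp upstream of the start site and 16 bp from the WT summit, and the Chgb site was centred 24 bp from its WT summit. In Chga the intron 1 site was 3 bp from the WT summit, and the upstream site was 27 bp from the summit of the 3xTg-only peak. The Cpe site was 1037 bp from the summit of its peak, unlike the others.

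Scg2 and Scg3 had no match of this kind, with 8 and 7 mismatches at best, yet both arms were present without any mismatch. In Scg2 the arms touched, with 0 bases between them, centred 7 bp upstream of the start site and 36 bp from the WT summit (chr1:79440026-79440040, plus strand). In Scg3 they stood 8 bases apart in the 5′ UTR, 2 bp from the WT summit (chr9:75683946-75683968, minus strand). Capitals below mark the arms and lower case the bases between them.
Scg2: TCAGCACCGGACAGC
Scg3: TCAGCACCcgcggggcGGACAGC
A search for both exact arms on 1 strand with 0 to 20 bases between them found 4 of the 10 WT member peaks (Chga, Chgb, Scg2 and Scg3; 2.86% of all WT peaks) and 5 of the 17 3xTg member peaks (the same genes and Crh; 1.95% of all 3xTg peaks). With a spacing other than 2 bases it found Scg2 and Scg3 in both lists, where 1.36% of all WT peaks and 0.945% of all 3xTg peaks qualified. Touching arms were rare: 2 peaks in each list had them. Arms 8 bases apart were in 7 WT and 8 3xTg peaks, and arms 9 bases apart, the next most frequent spacing after 2, were in 17 and 19. No peak of either list had a spacing from 3 to 6 bases. Both this search and the limit of 3 mismatches were chosen after the sequences had been seen.

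Among the cortical peptide genes, Crh encodes corticotropin-releasing hormone, which in cortex is made by interneurons. Its peak, chr3:19693988-19695016, was in the 3xTg list alone, 380 bp from the start site with the summit in intron 1 of 1. Its fold enrichment, 8.54, was just above the lowest value of that list (8.50), at rank 5022 and percentile 1.10. The WT list, which reaches down to 6.0, held no peak there, and its nearest peak lay 66051 bp from the start site. The RE1 match, with 3 mismatches, was 11 bp from the summit. The count of members with a 3xTg peak and no WT peak therefore rests on a peak at the lower end of the longer list.

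Pnoc encodes the precursor of nociceptin, the ligand of an opioid-like receptor. Its peak in intron 3 of 3, chr14:65403924-65404728 in WT, had fold enrichments of 13.6 (rank 262) and 25.6 (rank 230 in 3xTg). It lay 20744 bp from the start site in WT and 20384 bp in 3xTg. Pnoc thus stood above Scg2, Scg3 and Chga in both lists, although its best RE1 match had 7 mismatches in WT and 6 in 3xTg, and neither arm was in the peak.

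The other 14 genes of this group had no peak by the rule. They are Sst and Cort (somatostatin and cortistatin), Npy, Vip, Cck, Tac1 and Tac2 (tachykinins), Penk and Pdyn (opioid precursors), Adcyap1 (PACAP), Cartpt, Nmb and Grp (bombesin-like peptides), and Crhbp, whose product binds and sequesters CRH. Cartpt came closest to the limit from outside. Its nearest peak was 9996 bp from the start site in 3xTg (chr13:99889953-99890687, fold enrichment 12.6) and 10124 bp in WT (fold enrichment 7.38), downstream of the gene and shared between the lists. Cort followed at 26384 bp in 3xTg and 26584 bp in WT, with a 3xTg fold enrichment of 24.6, but there the nearest start site was that of Pex14. Npy had its nearest peaks 165538 bp away in WT and 165469 bp in 3xTg, shared and at fold enrichments of 12.6 and 17.5, and no other start site was closer to them. For Cck they lay 95580 and 94800 bp away (12.9 and 21.1), nearest to the start site of Trak1. The nearest peaks of Nmb (7.90 in WT and 21.5 in 3xTg) and Crhbp (7.94 and 14.2) were also above the list medians. Peaks above both medians were thus present at some distance from Npy, Cck, Cort, Cartpt, Nmb and Crhbp, which the rule does not assign to them. For Sst the distances were 652051 bp in WT and 592873 bp in 3xTg, and Adcyap1 had the longest of this group in both lists, at 2105276 and 1687886 bp. For these 14 genes the lists therefore hold no REST peak in the gene body or within 5 kb of a start site, which says nothing of binding below the lists' thresholds or in rare cells.

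The precursors known mainly from other regions were Pomc (melanocortins and endorphin), Nts (neurotensin), Gal (galanin), Trh (thyrotropin-releasing hormone), Calca and Calcb (calcitonin gene-related peptides) and Nppc (C-type natriuretic peptide). None had a peak in either list by the rule. Pomc was nearest, with a 3xTg-only peak 25932 bp from its start site (fold enrichment 9.89). Trh had the highest nearest peak of these genes, 11.8 in WT and 26.6 in 3xTg, at 145670 and 145314 bp and nearest to the start site of Prickle2. Calca and Calcb are neighbours on chromosome 7 and so share their nearest peak in each list.

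Of the enzymes, Pcsk2 encodes the convertase PC2. Its peak in intron 7 of 11 was narrow, 283 bp in WT (chr2:143776561-143776843) and 482 bp in 3xTg. Fold enrichment was 7.75 in WT, a value shared by 39 WT peaks, and 18.1 in 3xTg. The percentile was 60.1 in the WT list and 87.6 in the 3xTg list. The start site of the antisense transcript Pcsk2os2, 12499 bp from the WT summit, was closer than that of Pcsk2 at 230554 bp.

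Cpe, the gene of carboxypeptidase E, had a shared peak in intron 1 of 8, chr8:64634127-64634535 in WT, with fold enrichments of 9.64 and 13.8. Its percentile was 78.5 in WT and 74.5 in 3xTg. The 3xTg list added 2 peaks in the same intron, chr8:64657384-64659528 at 9.57 and chr8:64643554-64645031 at 9.15, both without a WT partner and both below the 3xTg median. Cpe thus had its highest peak in both genotypes and lower ones in the 3xTg list alone.

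Pam encodes the enzyme that amidates the C-terminus of peptides. In intron 1 of 25 a shared peak, chr1:98006125-98006395 in WT, had fold enrichments of 7.75 and 14.7. In intron 12 another, chr1:97887166-97887682 in WT, had 7.0 and 16.4. The start sites nearest to the WT summits were those of B230216N24Rik (41528 bp, against 89367 bp to that of Pam) in intron 1 and of Gin1 (117234 bp, against 208226 bp) in intron 12. The order of the 2 peaks by fold enrichment was opposite in the lists, and the intron 12 peak stood at percentile 43.3 of the WT list and 83.8 of the 3xTg list. The 3xTg list also held 2 unpaired Pam peaks, at 9.49 in intron 1 (chr1:98002505-98003348) and at 8.67 in intron 23 (chr1:97827417-97828030), the latter at percentile 5.61.

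The shared Pam peak of intron 1 lay on a tandem repeat. In the WT peak 73.9% of bases were identical to the base 33 positions further on, and in the wider 3xTg peak 56.8% were. No other member peak reached 50% at any step from 5 to 60 bases, so the count was 1 of 10 in WT, where 4.49% of all peaks reached it, and 1 of 17 in 3xTg, where 3.01% did. The measure and its limit of 50% were chosen after the repeat in the Pam sequence had been seen, and what part the repeat has in that peak was not tested. None of the Pcsk2 and Pam peaks held an RE1 match with at most 5 mismatches, or either arm.

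Pcsk1, which encodes PC1/3, the convertase that acts earlier in the pathway than PC2, had no peak. Its nearest peaks lay 749729 bp from the start site in WT and 898123 bp in 3xTg. The enzymes therefore divided into 3 genes with intron peaks only and 1 gene with none.

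**Figure D3:**
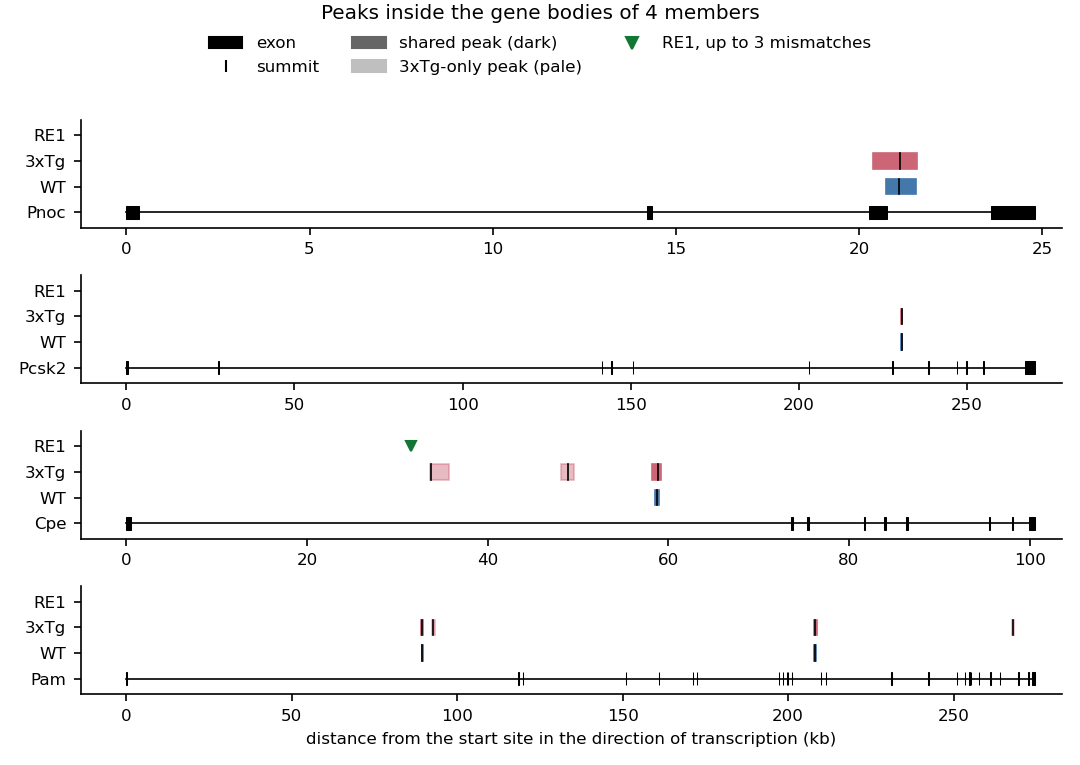
Gene models of Pnoc, Pcsk2, Cpe and Pam with WT and 3xTg peaks and RE1 matches of up to 3 mismatches, drawn from the start site in kb in the direction of transcription. All summits lie in introns, and the nearest peak to a start site is 20384 bp away, and the only RE1 match, in Cpe, lies outside every peak.

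At the 10 shared peaks, fold enrichment was higher in the 3xTg list at all 10, as it was at 99.5% of the 2504 shared WT peaks. For WT peaks under 8.50, the lowest 3xTg value, this direction was fixed in advance, and the ratio had a lower bound. Among the members this holds for Chga (7.28 in WT), Pcsk2 (7.75) and both shared Pam peaks (7.75 and 7.0). In the whole WT list 2056 of 3006 peaks lay under that value. The median ratio of 3xTg to WT was 1.71 at the members and 1.70 over all shared peaks, so the size of the difference was that of the list as a whole. The lowest ratio, 1.43, was at Scg2 and Cpe, and the highest, 2.34, at Pcsk2 and Pam in intron 12. By percentile within its own list, 7 of the 10 stood higher in 3xTg, and over all shared peaks 1919 of 2504 did. The median difference in percentile, 3xTg minus WT, was 2.44 points at the members and 8.09 over all shared peaks. It was 40.42 at Pam in intron 12, 27.53 at Pcsk2 and 18.02 at Pam in intron 1. At Pnoc it was 4.17, and at the granins it ran from −2.31 at Scg2 to 3.00 at Chga, with −0.33 at Scg3, 0.49 at Vgf and 1.89 at Chgb. At Cpe it was −4.06. All 5 granin values were thus below the median over all shared peaks, and those of Pcsk2 and Pam were above it. For Vgf and Chgb this was fixed by their WT percentiles (98.5 and 96.4), because a percentile cannot exceed 100. The lists differ in length and in their lowest value, so a difference in percentile is a description of the lists and not a comparison of binding between genotypes.

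RE1 matches were also sought in the whole region of each gene, with or without a peak. A site with at most 3 mismatches was present in 9 of the 33 members, or 27.3%, against 2.67% of all genes. These were Chga, Chgb, Vgf, Crh, Vip, Npy, Pomc, Cartpt and Cpe, with 10 sites in all. Of the 10 sites, 3 lay in a WT peak and 5 in a 3xTg peak. Over the genome 1214 sites of this quality were found, of which 12.3% lay in a WT peak and 14.3% in a 3xTg peak, so most such sites had no peak in either list. At the limit of 5 mismatches 23 of the 33 members had a site, and the share of all genes at that limit was not counted. Of these 41 sites, 5 lay in a WT peak and 8 in a 3xTg peak (0.717% and 0.976% over the genome).

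The 5 member sites without a peak are shown for comparison with those above. They had 2 mismatches in Cpe and 3 in the others, whereas of the 5 sites in peaks Chgb and Vgf had 2 and the others 3. Capitals again mark matching bases. Cpe is the minus strand of chr8:64661537-64661556 in intron 1, between the start site and the nearest 3xTg-only peak, and Vip the plus strand of chr10:5639307-5639326 in the 5′ UTR of exon 1. Npy is the minus strand of chr6:49825905-49825924 in intron 2, Pomc the minus strand of chr12:3955620-3955639 in intron 2, and Cartpt the minus strand of chr13:99900623-99900642 in the coding part of exon 1.
Cpe intron 1: TCAGCACCcTGGACAaCGCC
Vip: TCAGCACCcTaGACAGCTgC
Npy: TCAGCAgCATGcACAGCTaC
Pomc: TCAGaACCtTGGACAGtTCC
Cartpt: cCAGaACCATGGAgAGCTCC
Outside the 2 bases between the arms these had 1 mismatch in Cpe, 2 in Vip and Pomc, and 3 in Npy and Cartpt. The sites in peaks had 0 in Chgb, 1 in Vgf, Chga intron 1 and Crh, and 2 in Chga upstream. Outside those bases the sites in peaks thus had from 0 to 2 mismatches and the sites without a peak from 1 to 3, so the ranges overlapped.

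Genes of the same pathway outside the 33 were counted by the same rule. Among 36 peptide receptor genes 1 had a peak, in both lists: Oprm1, which encodes the mu opioid receptor, in intron 3, with fold enrichments of 7.56 in WT and 10.4 in 3xTg and nearest to the start site of Ipcef1. Among 25 other peptide precursors none had a WT peak and 1 had a 3xTg peak, Hcrt (hypocretin), at 10.5, but that peak was downstream of the gene and nearest to the start site of Kcnh4. Among 14 other processing enzymes, Pcsk6 had a peak in both lists (7.56 and 11.7, nearest to the start site of Snrpa1) and Cpd in 3xTg alone (10.2). The shares were 2.78% of receptors in each list, 0% and 4.00% of the other precursors in WT and 3xTg, and 7.14% and 14.3% of the other enzymes. Receptors and other precursors were thus below the 9.30% and 14.2% of all genes, and the other enzymes were close to them. Each of these counts is of 2 genes or fewer, so no difference between genotypes or from all genes is read from them. Within 5 kb of a start site alone (all genes, 6.72% and 9.87%), the receptors had 0 in both lists. The other precursors and the other enzymes each had 0 in WT and 1 in 3xTg.

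Of 20 genes for the formation and release of dense-core vesicles, 5 had a WT peak and 4 had a 3xTg peak. These shares, 25.0% and 20%, stand beside 9.30% and 14.2% of all genes. Snap25, a SNARE protein of exocytosis, had 19.6 in WT and 19 in 3xTg at its start site. Syt7, a calcium sensor of slow release, had 15.8 and 25.6 in intron 1. Ptprn and Ptprn2 encode the vesicle membrane proteins IA-2 and IA-2 beta. Ptprn2 reached 7.94 and 17.1 at its start site, and Ptprn had 6.65 and 12.1 at a start site peak with an RE1 match of 1 mismatch. The fifth gene, Syt4, had a WT-only peak of 6.11 at its start site, below the lowest 3xTg value, and was named after its value was seen. Within 5 kb of a start site alone, 4 of the 20 had a WT peak and 3 a 3xTg peak (all genes, 6.72% and 9.87%). Start site peaks of both lists were thus found at 5 granins and at Snap25, Ptprn and Ptprn2. None of the neuropeptide precursor genes among the members had them, and Crh had one in 3xTg alone. Only 3.97% of all genes had peaks of both lists within 1 kb of a start site. The lack at the precursors is therefore not read as a difference.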

How the data were processed

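REST ChIP-seq libraries of WT and 3xTg cortex (4 replicates and 1 input per genotype) were aligned to mm10 by the authors. Their methods name STAR 2.7.0a for all libraries, whereas the submitters' processing notes list BWA for replicates 1 and 2 and the inputs. Peaks were called with MACS, filtered by the authors at a stated fold enrichment over 5 and q under 0.01, and cleared of blacklisted regions, although the lists begin higher, at 6.0 for WT and 8.50 for 3xTg. Each deposited peak has a score, a fold enrichment (a ratio over local background), p- and q-values written as −log10, and a summit offset, all for the 4 replicates combined. The deposited p-values were not used. Library depth was not used here.

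The members and all gene lists were chosen with earlier results of these data known. Peaks on chromosome Y were left out (4 WT, 9 3xTg; all mice were female), following earlier processing of these data. Genes, start sites and sequences came from curated RefSeq transcripts and the genome of GRCm38.p6. All members are named, with full values for those with a peak, and of each further list the up to 4 genes with the highest fold enrichment. Tied peaks share a rank. RE1 was HOMER's REST motif written as a consensus. Python 3.11.15, numpy 2.4.6, matplotlib 3.10.9 and samtools 1.23.1 were used, and overlaps and gene counts were checked with bedtools 2.31.1 and the RE1 search on simulated data. Alternatives varied the gene rule, the thresholds, the overlap, the RE1 limit and the ranking.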

Additional observations from a re-analysis of the deposited data

How the results depend on the processing

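The lists allow no paired analysis because each pools the 4 replicates of a genotype, and for the same reason leaving out a replicate was not run. A q under 1e-05 removed no peak. With 5 kb or 1 kb of a start site alone, 5 members had a WT peak (all genes, 6.72% and 5.32%), 6 a 3xTg peak (9.87% and 7.84%) and 5 both (5.24% and 3.97%). The shared peaks within 5 kb numbered 5 in each list, since peaks deep in introns no longer count. The share of all peaks that were shared under this rule was not counted. With fold enrichment over 10 in both lists, 5 members had a WT peak (all genes, 1.91%), 5 had both (1.89%), 4 had a 3xTg peak alone (Chga, Pcsk2, Cpe and Pam; 7.52%, against 1 member and 6.42% in the main analysis), and 5 peaks of each list were shared (all peaks, 99.3% in WT and 18.5% in 3xTg, against 83.3% and 49.0% in the main analysis). With the lowest 3xTg fold enrichment required of both lists, a limit chosen after seeing the data, 4 members had a 3xTg peak alone (Chga, Crh, Pcsk2 and Pam; all genes, 11.2%) and 6 peaks of each list were shared (all peaks, 99.5% and 18.6%). With only as many 3xTg peaks as WT peaks, 0 members had a 3xTg peak alone (all genes, 2.43%), because the Crh peak was dropped. The median percentile was 81.3 in WT and 72.4 in 3xTg when ranked by score, and 89.9 and 78.5 within 5 kb of a start site. An RE1 match was in 3 WT and 5 3xTg member peaks at a limit of 4 mismatches (all peaks, 5.49% and 3.84%), in 3 and 8 at 6 (14.8% and 17.5%), and in 3 and 5 within 200 bases around the summit (5.69% and 3.80%), against 3 and 6 in the main analysis (7.09% and 6.09%).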
